A study of Drosophila melanogaster with 2 samples.

Results

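The regions described here are the peaks of the luna-GFP fusion protein that lay just upstream of a fly gene with no gene reading away from it on the other strand. They were taken from the authors' reproducible peak list in the dm6 build, which holds the peaks that passed a threshold on the irreproducible discovery rate (IDR), a measure of how far peak ranks repeat between replicates. A peak was a member when its summit lay 1 to 500 bp upstream, by the gene's strand, of the nearest protein-coding transcription start site (TSS), and no protein-coding gene on the opposite strand had a TSS within 1000 bp of that start. There were 485 such peaks of 1696, or 28.6% (Wilson 95% interval 26.5 to 30.8). They belonged to 464 genes. A further 396 peaks lay upstream in the same way but had an opposite-strand TSS within 1000 bp, and in 383 of these the partner's TSS lay on the upstream side, so that the genes stood head to head. A smaller class of summits lay from 0 to 500 bp downstream of the nearest TSS.

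The chromatin came from whole Drosophila melanogaster embryos of both sexes pooled, 0 to 24 h old, of the strain luna-MiMIC-GFP. In this strain an exon for enhanced GFP sits within an intron of luna, and the resulting luna-GFP fusion protein was precipitated with an antibody against GFP after sonication to 200 to 800 bp. The libraries were 2 biological replicates of this 1 group. A single insertion line, no second condition and no untagged embryos were analysed here, so every comparison below is between classes of regions or genes. Embryos of all these stages and all their tissues were mixed, so a peak cannot be assigned to a cell type.

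As background, the luna protein belongs to the Krüppel-like (KLF) family of zinc finger transcription factors, which bind CACCC and GC boxes in DNA. Fly promoters fall broadly into those of widely used genes, which often carry the DNA replication-related element (DRE) bound by Dref, paired CGATA elements bound by the boundary protein BEAF-32 and the core promoter motifs numbered by Ohler and colleagues, and those of regulated genes, which more often carry a TATA box or GAGA elements bound by the GAGA factor. In the compact fly genome many genes start back to back from 1 shared stretch of DNA. A promoter without such a partner has no coding gene that starts close by in the other direction. Several genes on the same strand can still share a start, as 9 members had tied nearest genes, among them CG46429 with Sesn, CG44286 with CG8788 and CG7694 with fray. Each is named by the first gene alone.

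The following windows, each reaching 50 bp to either side of a summit, show what kinds of sequence these peaks covered. They were chosen as the strongest members holding each motif that was more frequent at summits than in flanking DNA (1 or 2 for each motif, each gene once), together with the strongest members that held none of them. The choice was limited to windows that overlap no annotated untranslated region and show the site itself, on the chromosome arms named with the processing. Each comes from RefSeq's Release 6 genome, which has the dm6 coordinates, and is printed 5′ to 3′ on the strand of the gene. Capitals mark the motif site for which the window is shown.
p53 (DRE; chr3R:23054088-23054188, minus strand): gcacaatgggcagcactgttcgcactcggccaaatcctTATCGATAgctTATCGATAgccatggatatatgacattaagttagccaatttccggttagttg
Rnp4F (DRE; chrX:5322710-5322810, minus strand): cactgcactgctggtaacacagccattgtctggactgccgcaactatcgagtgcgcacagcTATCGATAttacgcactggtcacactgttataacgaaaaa
CG11151 (CGATA pair; chrX:13739530-13739630, plus strand): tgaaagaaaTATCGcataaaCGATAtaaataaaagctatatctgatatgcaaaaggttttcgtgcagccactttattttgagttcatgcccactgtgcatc
Regnase-1 (Ohler motif 7; chr3R:20036088-20036188, minus strand): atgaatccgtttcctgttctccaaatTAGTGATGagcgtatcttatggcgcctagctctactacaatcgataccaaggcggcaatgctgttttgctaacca
goe (Ohler motif 7; chrX:16751930-16752030, minus strand): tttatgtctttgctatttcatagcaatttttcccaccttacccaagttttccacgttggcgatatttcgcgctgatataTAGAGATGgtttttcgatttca
CG4586 (Ohler motif 6; chrX:6969393-6969493, plus strand): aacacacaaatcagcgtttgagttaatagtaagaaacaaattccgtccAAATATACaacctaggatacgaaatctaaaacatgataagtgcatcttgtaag
Fancm (CTCF core; chr3R:21482009-21482109, plus strand): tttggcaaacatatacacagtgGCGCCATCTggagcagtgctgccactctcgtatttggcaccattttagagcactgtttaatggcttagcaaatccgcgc
CG9743 (GAGA; chr3R:30203395-30203495, minus strand): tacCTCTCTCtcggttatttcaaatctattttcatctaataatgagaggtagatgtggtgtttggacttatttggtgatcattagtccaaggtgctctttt
CG14100 (none; chr3L:19590574-19590674, minus strand): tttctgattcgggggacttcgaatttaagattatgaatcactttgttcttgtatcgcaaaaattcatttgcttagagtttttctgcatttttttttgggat
larp (none; chr3R:28326540-28326640, minus strand): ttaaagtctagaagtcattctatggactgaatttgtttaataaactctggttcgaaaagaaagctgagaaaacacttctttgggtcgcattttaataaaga

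In the p53 window, DRE sites stand as a repeat of TATCGATA separated by a few bases, and each of these also contains CGATA. The CG11151 window holds CGATA once on each strand. The Fancm window carries the CTCF core, and that of CG9743 a GAGA repeat read on the other strand. The windows of CG14100 and larp, both among the strongest members, hold no letters in capitals.

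The strongest member lay 100 bp upstream of CG14100, at 3L 19590469 to 19590782. Its signal, the score that the authors deposited for each peak, without a stated scale, was 672 in the reproducible list, 358 in replicate 1 and 314 in replicate 2, and it ranked 1 and 2 in the replicates. The stretch between CG14100 and ash1, the next gene upstream, which reads in the same direction, left 149 bp from the summit to the end of ash1. Next came px, a gene of wing vein patterning, with a signal of 390 (184 and 200.8 in replicates 1 and 2). Its summit lay 180 bp upstream of an inner TSS, in an intron of the gene's longer transcripts. CG1888 followed with 364 (166 and 189), 212 bp upstream of an inner TSS. These 3 members stood high in both replicates, at rank 17 or better in each.

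The member at larp, which encodes a La-related protein that binds mRNAs, had a signal of 360 (181 and 179 in the replicates). At ph-p, which encodes the Polycomb protein Polyhomeotic, the signal was 325 (160 and 169), 483 bp upstream. ph-p has a near-identical tandem copy, ph-d, and how the authors treated reads that map to both is not given in the sources used here. At Atf3, a bZIP transcription factor gene, it was 301.5 (144 and 160). The member at gish, a casein kinase 1 gene, had 287 (135 and 150). Rtnl1, whose reticulon protein shapes the endoplasmic reticulum, had 278 (161 and 118). In each of these 5 both replicates ranked the region 44 or better.

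The others of the 20 had signals from 340 down to 195. They were CG31145, CG17896, MFS10, CG18549, CG13921, eIF6, nebu, Hpf1, amon, Reg-5, Msp300 and Alg3. The protein of eIF6 acts in the making of the large ribosomal subunit, Hpf1 is a partner of the poly(ADP-ribose) polymerase, amon encodes a prohormone convertase, Msp300 a nesprin that ties nuclei to the cytoskeleton, and Alg3 a mannosyltransferase of N-glycan assembly. The interval was narrower than the standard width of the list in 19 of the 20 strongest members, against 11 of the other 465. The weakest members were OtopLa with 46.4 (19.5 and 26.4) and Gyf with 46.4 (18.3 and 22.7).

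Over all 485 members the signal ranged from 46.4 to 672, with a median of 66.7 and a middle 50% from 54.3 to 94.6. The head-to-head class had a median of 66.6 and the downstream class 64.0. The share above the median of the whole list was 54.2% in members and 52.3% in head-to-head peaks, with an odds ratio of 1.08 (Woolf 95% interval from 0.829 to 1.41, two-sided p = 0.587 by Fisher's exact test). It was 46.8% in downstream peaks, an odds ratio of 1.35 (Woolf 95% interval from 0.970 to 1.88, p = 0.0784 by Fisher's exact test). Neither difference passed, and both intervals include 1. Without replicate 1, with replicate 2 alone ranking the peaks, members exceeded downstream peaks by 10.8 percentage points (p = 0.00618 by Fisher's exact test), against 7.46 points with both replicates, and differed from head-to-head peaks by -0.729 (p = 0.835). Among the stronger 848 peaks of the list the cut was the median of those 848, a higher score than the median of the whole list. There the differences were -0.566 points from downstream peaks (p = 1 by Fisher's exact test) and 9.82 from head-to-head peaks (p = 0.0409). Neither order was thus stable over the alternatives, although the last of them also moved the cut. Peaks are not biological replicates, so these tests describe the list, and all intervals cover counting error only. Read counts were not analysed, so the depth is unknown.

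Nearly every member was found in both replicate candidate lists. With a candidate summit within 250 bp taken as a match, 483 of 485 were matched in both. The remaining members were at gw, which encodes a protein of microRNA silencing, with no match in replicate 2, and at bel, a DEAD-box RNA helicase gene, with no match in replicate 1. The lists are long, at 30000 candidates each, so a match is a weak criterion. Among the 1696 strongest candidates of both replicates were 314 members, or 64.7% (95% interval 60.4 to 68.9), and 13 were in neither.

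The matched scores had medians of 31.3 in replicate 1 and 37.2 in replicate 2. The log2 ratio of replicate 1 to replicate 2 had a mean of -0.29 and an SD of 0.60 over the 483 members. Since the scale of the score is not stated, the mean may hold a difference of scale between the lists, and ranks are given below beside the scores. Across these members the rank correlation was 0.53 (Spearman's rho) and the correlation of log10 scores 0.66 (Pearson's r), which describes peaks of the same 2 libraries selected for strength. In the head-to-head class the SD was 0.56 and rho 0.53.

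Some members rested mostly on 1 library. At shn, which encodes the zinc finger protein Schnurri of Dpp signalling, the score was 11.9 in replicate 1, at rank 8482, and 78.8 in replicate 2, at rank 117. At fkh, the forkhead gene of gut and salivary gland development, it was 11.4 in replicate 1, at rank 9670, and 55.0 in replicate 2, at rank 312. At UQCR-14, a subunit of respiratory complex III, it was 9.01 in replicate 1, at rank 18723, and 37.6 in replicate 2, at rank 768. In the other direction, Best1, a bestrophin chloride channel gene, had 27.4 in replicate 1, at rank 1050, and 11.6 in replicate 2, at rank 12887. CG10433 had 35.2 and 14.8, at ranks 622 and 7068. The weaker member of Syx4, a syntaxin gene, had 59.0 and 24.8, at ranks 198 and 2117. These 6 have the lowest and the highest ratios among the members.

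**Figure D1:**
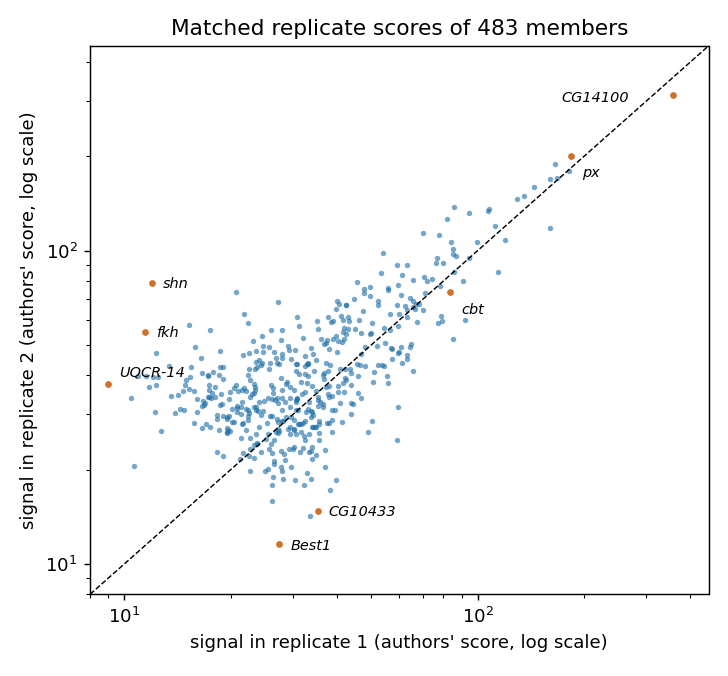
Signal of each of 483 members in replicate 1 (horizontal) and replicate 2 (vertical), both the authors' score on log axes, with the line of equal scores dashed and a few named members in orange. The strongest members lie close to the line, and shn, fkh and UQCR-14 lie far above it.

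Within the 500 bp that the rule allows, more summits lay near the TSS than far from it. The median member summit was 136 bp upstream, with the middle 50% from 68 to 240 bp and a range of 1 to 496. In the first 100 bp lay 184 members (37.9%), in the second 144, in the third 87, in the fourth 42 and in the last 28. Head-to-head summits stood nearer to their TSS, at a median of 74.5 bp, and the distance to the partner bounds how far upstream such a summit can be. The 2101 weaker candidates that meet the same position rule but overlap no reproducible peak had 36.9% of their summits in the first 100 bp. The odds ratio of members to weaker candidates was 1.05 (Woolf 95% interval from 0.853 to 1.28, p = 0.677 by Fisher's exact test), so no difference was detected. In the stronger 848 peaks of the list the difference in this share, members less weaker candidates, was -8.20 percentage points (Fisher's exact test, p = 0.00867). There the weaker candidates also included those at the other reproducible peaks, so both sides of the comparison changed.

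**Figure D2:**
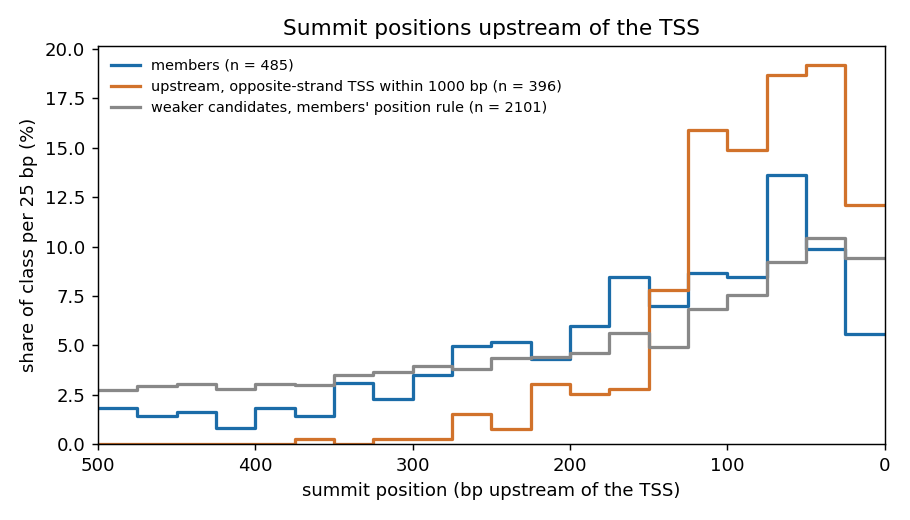
Position of summits in bp upstream of the TSS (horizontal, the TSS at the right) as a share of each class per 25 bp (vertical), for 485 members, 396 upstream peaks with an opposite-strand TSS within 1000 bp and 2101 weaker candidates. Members have a median of 136 bp and extend to 496 bp, whereas the class with a partner has a median of 74.5 bp.

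Members nearest to the TSS had the lower scores. The median signal was 59.9 for summits in the first 100 bp, 75.2 in the second, 73.8 in the third, 74.2 in the fourth and 66.9 in the last. Across the 485 members Spearman's rho of signal with distance was 0.23. It was -0.05 with GC content and 0.03 with the distance to the nearest opposite-strand TSS. These are descriptions across peaks of the same libraries.

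Values ran on across the limits of the rule. Just inside 500 bp were sick at 489 bp with a signal of 100.2, CG17896 at 494 bp with 274 and CAP at 496 bp with 64.4, and just outside were Acsf2 at 503 bp with 69.0, CG42780 at 509 bp with 71.9 and mrj at 535 bp with 61.1. At the partner limit, Eno, CG9776 and SLC5A11 had an opposite-strand TSS 1015, 1027 and 1039 bp away, with signals of 58.5, 66.4 and 49.6. SMC1, CG30015 and Bet3 fell outside with 977, 977 and 965 bp and signals of 49.5, 70.0 and 90.5. Most members were far from this limit, as 410 had the nearest opposite-strand coding TSS beyond 2000 bp and 125 beyond 10000 bp. The rule looks at coding genes alone, and 43 members had a non-coding gene starting on the opposite strand within 1000 bp.

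The members fell into 2 kinds of promoter. In 321 the TSS was the gene's outermost start, and in 164 it was an inner, alternative start, with the summit inside the gene itself. The inner ones included px, CG1888, larp, ph-p, gish, Rtnl1, MFS10 and Msp300 among the strongest 20. Their median signal was 73.2, against 64.7 at outermost starts, and their median distance was 180 bp, against 111 bp. By annotation 276 summits were intergenic, 151 intronic, 29 in a 5′ UTR, 12 in a 3′ UTR, 2 in coding sequence and 15 in a non-coding RNA gene. Of these summits, 30 lay inside another gene. The next gene upstream read in the same direction for 320 members, and for 139 of those its end was within 500 bp of the summit.

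A gene without a partner carried a peak upstream less often than a gene with one. Each protein-coding gene was represented by its outermost TSS. Of 8878 genes without an opposite-strand neighbour 326 had a reproducible summit 1 to 500 bp upstream, or 3.67% (95% interval 3.30 to 4.08). Of 5067 genes with a neighbour 749 had one, or 14.8% (13.8 to 15.8). The odds ratio was 0.220 (Woolf 95% interval from 0.192 to 0.252, p = 2.35e-118 by Fisher's exact test). A summit between head-to-head genes counts for both, and the 749 genes shared 458 summits, while the 326 genes had 322. Any pooled candidate in that stretch was found for 19.6% of genes without and 47.2% of genes with a neighbour. Among genes with a candidate the shares were 18.7% and 31.3%, an odds ratio of 0.505 (Woolf 95% interval from 0.435 to 0.585, p = 2.84e-20 by Fisher's exact test), a comparison chosen after the data were seen. Both tests take genes as independent, which genes that share a summit are not, so their intervals and p-values overstate the precision. The count also did not ask whether the gene's own TSS was the one nearest to the summit.

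Counting members at inner starts too, 413 of the 8878 genes without a partner, or 4.65%, carried a member, which is the background for the lists of genes that follow. No list was tested. Among cytosolic ribosomal protein genes 15 of 37 without a partner carried one, or 40.5%. Of those with a partner, 24 of 56 had an upstream peak. The summits of the 15 members stood close to the start, at 3 to 110 bp with a median of 25 bp, and their signals ran from 48.1 to 187 with a median of 79.5. RpL23A had 187 (77.6 and 112 in replicates 1 and 2), RpL30 139 (68.4 and 67.4) and RpL24 137 (59.7 and 77.4). After these came RpL11, RpL22, RpL37A, RpL17, RpS4, RpS10b, RpL37-1, RpL10, RpS24, RpL12, RpS3A and RpS14b. Both subunits of the ribosome are represented. RpS14b has a tandem copy, RpS14a, so its reads may be shared. In these 15 windows the CGATA pair was found 5 times, Ohler motif 7 in 4 and the DRE in 3.

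Other gene groups of basic cell function had 0 to 2 members each. Mitochondrial ribosomal proteins had 0 of 16, the proteasome 0 of 23, aminoacyl-tRNA synthetases 0 of 10, spliceosomal proteins 0 of 6 and nuclear pore proteins 0 of 4. The background share would give about 1 gene or fewer in each. Of the genes with a partner in these lists, in the same order, 11 of 59, 3 of 25, 4 of 23, 4 of 30 and 2 of 18 had an upstream peak. Of all genes with a neighbour 14.8% had one upstream of the outermost TSS. Oxidative phosphorylation had 1 of 46, at UQCR-14 with 48.3. Translation initiation factors had 2 of 23, at eIF6 with 231 and eIF2A with 58.0. The vacuolar ATPase, which acidifies endosomes and lysosomes, had 2 of 19, at Vha16-1 with 100.1 and Vha68-2 with 82.5. Mediator and TFIID, which act in transcription initiation, had MED4 with 80.5 as 1 of 13, and Taf4 carried a member with 94.0 at an inner start. The ESCRT list had Vps28 with 60.8 as 1 of 8. The shares of translation initiation factors, the vacuolar ATPase, Mediator and TFIID, and ESCRT were thus 8.70%, 10.5%, 7.69% and 12.5%. These stood above the background of 4.65%, and the 2.17% of oxidative phosphorylation below it, on short lists and without a test.

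The developmental and regulatory lists of this paragraph held a few members each, while segmentation and Hox genes, given below, held 0 of 28. The shares in the lists of this paragraph stood above the background of 4.65%, but on lists of 6 to 23 genes and without a test. Some of the lists of basic cell function did so too. Of signalling genes without a partner at the outermost TSS 4 of 23 carried a member, and 1 more gene did so at an inner start. They were spi, the EGF receptor ligand Spitz, with 139 (84.9 and 52.1 in the replicates), sgg, the fly GSK3 kinase, with 127 (49.6 and 76.5), and shn with 90.2. N, which encodes the Notch receptor, had 71.7, and aop, an Ets-type repressor of the EGF receptor pathway, had 47.9. Of the Hippo pathway, which limits tissue growth, 2 of 6 did, with kibra at 88.5 (27.99 and 55.8) and ex at 55.3 (22.1 and 26.7). Polycomb and trithorax genes had 2 of 12, ph-p and jing, the latter with 53.2 (12.5 and 39.4). Insulator factors had 1 of 8, which was BEAF-32 itself with 74.6. Mitotic genes had 2 of 10, the checkpoint gene BubR1 with 59.4 and the kinase gene polo with 55.1. Of KLF and Sp factors 1 of 8 carried one, at cbt, a KLF-type gene, with 170 (83.6 and 73.5), 392 bp upstream of the TSS. The gene luna was not among the members.

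Gene lists with narrow expression held no member. Chemoreceptor genes had 0 of 153, cuticle protein genes 0 of 104 and segmentation and Hox genes 0 of 28 without a partner. At 4.65% each of the first 2 lists would hold several members. Of the genes with a partner in these lists, in the same order, 2 of 26, 0 of 13 and 0 of 1 had an upstream peak. In mixed whole embryos, the number of cells that bind at a site and the binding per cell cannot be told apart.

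Several genes carried more than 1 member, at alternative starts or as neighbouring summits. The genes Rtnl1, Ptpmeg2 and dnc had 3 each. For Rtnl1 the signals were 278, 144 and 62.9 at 3 different starts. For Ptpmeg2, a tyrosine phosphatase gene, they were 128, 108 and 77.3. The cAMP phosphodiesterase gene dnc had 185, 73.1 and 57.3. A further 15 genes had 2 members, among them larp with 360 and 70.4, brwl with 145 and 70.2, gro, the Groucho corepressor gene, with 137 and 75.9, Pgk, a glycolytic enzyme gene, with 99.5 and 58.9, and shot, a spectraplakin gene, with 66.7 and 57.7. For CG31886, CG46385, RhoGEF2 and prage both summits lay upstream of the same start. The other genes with 2 were CAP, P5CDh1, Sur-8, Svil, Syx4 and mtd. The strongest and the weakest peak of such a gene could differ several-fold.

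Motifs were searched on both strands in the 100 bp on each side of each summit, and in a window of the same size centred 1000 bp further upstream as the flank. Of 27 motifs tested 6 were more frequent at summits, or 22.2%, and 1 was less frequent, or 3.7% (exact McNemar test, Benjamini-Hochberg adjusted over the 27). Windows of the same length 136 bp upstream of 8552 promoters without a partner and without an upstream peak gave a share in other promoters. These windows all lie at 1 distance, the median of the members, whose summits range from 1 to 496 bp upstream. The shares in promoters without a peak are thus not matched to members for position. Nor are they matched for the kind of start, as those promoters are all outermost starts and 164 members lie at inner ones. At outermost and inner starts the members' shares were 24.9% and 9.76% for the CGATA pair and 11.5% and 3.05% for the DRE. For Ohler motif 7 they were 25.9% and 14.6%, and for GAGA 6.23% and 11.6%.

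The largest gains were of sequences known from promoters of widely used genes. At least 2 separate copies of CGATA were present in 96 members, or 19.8% (95% interval 16.5 to 23.6), against 4.54% of flanks (exact McNemar test, adjusted p = 1.02e-11) and 7.38% of promoters without a peak. The DRE, TATCGATA, was in 42 or 8.66%, compared with 0.619% of flanks (exact McNemar test, adjusted p = 7.79e-09) and 3.03% of such promoters. Of those 42, 35 also counted as a CGATA pair, although the overlapping CGATA copies of a lone DRE do not make a pair, and 61 of the 96 members with a pair held no DRE. Ohler motif 7, spelled CAGCNCTA, CAGCNCTG, CATCNCTA or CATCNCTG, was in 107 or 22.1%, compared with 7.22% of flanks (exact McNemar test, adjusted p = 1.17e-10) and 7.47%. The windows of promoters without a peak lay 136 bp upstream. Members with the summit in the second 100 bp, around that distance, held the pair in 9.72%. The 95% interval, 5.88 to 15.7, includes the 7.38% of promoters without a peak. The same members held the DRE in 6.25% (3.32 to 11.45) and motif 7 in 16.7% (11.46 to 23.6). Those intervals lie above 3.03% and 7.47%, and none of these differences was tested. These 3 motifs overlapped in members, with 49 holding both a CGATA pair and motif 7. Ohler motif 1, GGTCACACT, was not called, with 1.86% of members and 0.619% of flanks (exact McNemar test, adjusted p = 0.2685).

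The other gains were smaller. Ohler motif 6, searched by its cores GTATTTTT and GTATATTT, was in 9.69%, compared with 4.33% of flanks (exact McNemar test, adjusted p = 0.00576), and in 7.33% of promoters without a peak. GAGAGAG, the GAGA element, was in 8.04%, compared with 2.89% of flanks (exact McNemar test, adjusted p = 0.00419) and 6.09%. The CTCF core, AGATGGCGC, AGGTGGCGC, AGAGGGCGC or AGGGGGCGC, was in 13 members or 2.68%, compared with 0.412% of flanks (exact McNemar test, adjusted p = 0.0285) and 0.667%. The share in promoters without a peak was thus close to that in members for motif 6 and GAGA, a difference that was not tested. All 3 calls were lost in the narrower windows of 50 bp around the summit, at adjusted p of 0.62, 0.346 and 0.116 (exact McNemar test). That of GAGA was lost against a flank 1000 bp downstream (exact McNemar test, adjusted p = 0.315), that of motif 6 without replicate 1 (0.0837), and that of the CTCF core without replicate 2 (0.119) and with a partner distance of 2000 bp (0.0758). Among the stronger 848 peaks, with 263 members, all 3 calls were lost, although the difference from the flank for GAGA was 5.32 percentage points there and 5.16 in all members. It was 3.80 and 5.36 for motif 6, and 1.52 and 2.27 for the CTCF core. Strong carriers included eIF6 and Alg3 for the DRE, Oatp30B and eEF1gamma for the CGATA pair and motif 7, Hpf1 and dnc for motif 6, px and Toll-7 for GAGA, and Smg5, nxf4 and InR, the insulin receptor gene, for the CTCF core.

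**Figure D3:**
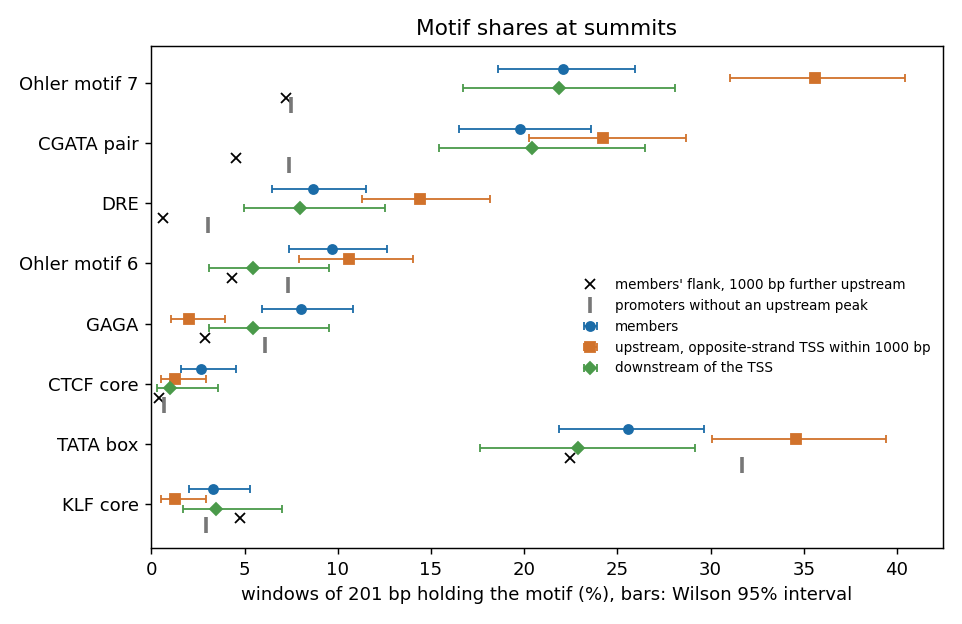
Share of summit windows holding each of 8 motifs (horizontal, in percent) for members, upstream peaks with a partner and downstream peaks, with Wilson 95% intervals, and for the members' flanks (crosses) and promoters without an upstream peak (ticks). Members lie at 22.1% for Ohler motif 7 and 19.8% for the CGATA pair, above 7.22% and 4.54% in their flanks.

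The motif of the tagged protein's own family was not among those called. The KLF core, CACACCC or CACGCCC, was found in 16 members or 3.30% (95% interval 2.04 to 5.29), in 4.74% of flanks (exact McNemar test, adjusted p = 0.535) and in 2.95% of promoters without a peak. Those with it included CG1888 and eIF6 of the strongest 20. The Sp-type GC box GGGCGG was the motif called lower, with 3.30% against 7.84% of flanks (exact McNemar test, adjusted p = 0.0143). It was in 4.78% of promoters without a peak. The call was lost among the stronger 848 peaks (exact McNemar test, adjusted p = 0.569). The GC content moved with this, at a median of 37.8% at member summits, 42.3% in the flanks and 42.8% downstream of the summits at the same distance, and its part in the result was not tested. No match says only that these letters were not in the window.

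In all, 230 members, or 47.4%, held at least 1 of the 6 motifs, against 90 flanks or 18.6%, which follows from how the 6 were chosen. The other 255 held none. Those had a median signal of 70.4 and lay at a median of 186 bp upstream, against 64.7 and 86.5 bp for members with a motif. Of the 20 strongest members 4 held any of the 6, namely px, eIF6, Hpf1 and Alg3.

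Motif shares differed with the distance of the summit from the TSS. Sites were searched only within 100 bp of each summit, so windows far from the TSS cannot show a site next to it. The shares and site positions below therefore depend in part on where the windows lie, and how far was not tested. The CGATA pair was in 41.3% of members with the summit in the first 100 bp (95% interval 34.4 to 48.5), in 9.72% of those in the second and in 3.82% of those further out. The DRE fell from 16.8% to 6.25% and 1.27%, and Ohler motif 7 from 34.8% to 16.7% and 12.1%. GAGA showed no such order, with 5.98%, 11.1% and 7.64%. Single sites lay at a median of 48 bp upstream of the TSS for CGATA, 53.5 bp for the DRE, 52 bp for motif 7 and 101.5 bp for GAGA. Motif 7 was read on the gene's strand at 73.6% of its sites. Taking the nearest site in each window, GAGA was at a median of 61 bp from the summit, Ohler motif 7 at 43 bp and the DRE at 36 bp. For CGATA the value of 16.5 bp is not comparable, since a member with the pair has at least 2 sites to choose from.

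**Figure D4:**
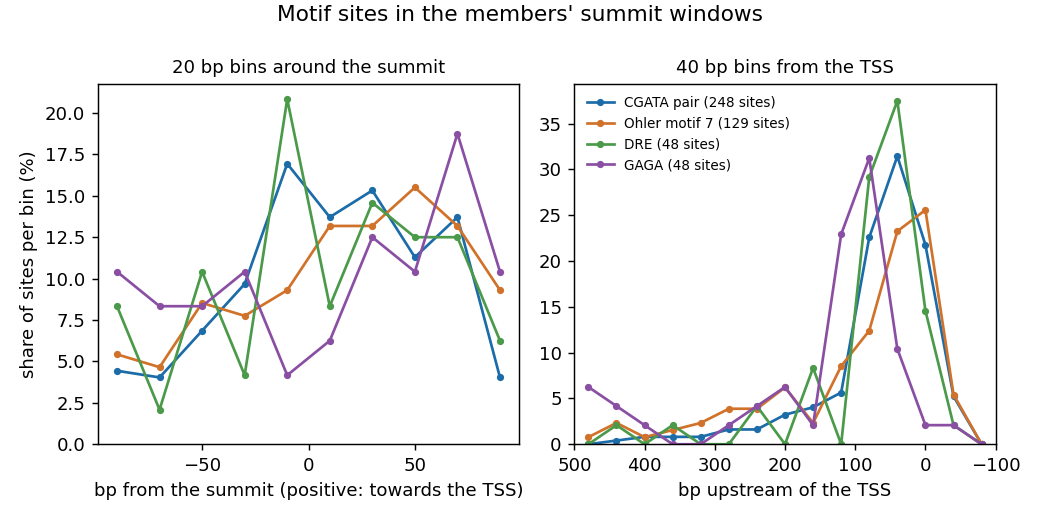
Positions of single motif sites in the members' summit windows, as a share of all sites of the motif per bin (vertical, in percent), by distance from the summit (left) and from the TSS (right). CGATA, DRE and Ohler motif 7 sites gather within 100 bp upstream of the TSS, with medians of 48, 53.5 and 52 bp, and GAGA sites further out at 101.5 bp. Sites were searched only within 100 bp of a summit, so the right panel also depends on where the summits lie.

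**Figure D5:**
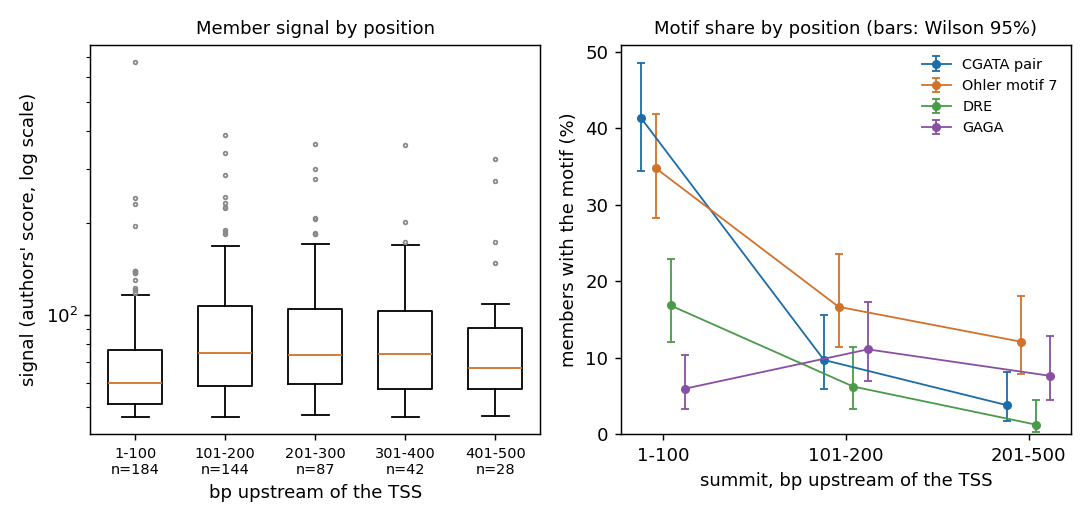
Left, signal of members (authors' score, log axis) by distance of the summit from the TSS, with the median, the middle 50% as a box, whiskers to 1.5 times the box and single members beyond. Right, share of members with each of 4 motifs within 100 bp of the summit, by distance of the summit from the TSS, with Wilson 95% intervals. The CGATA pair is at 41.3% for summits in the first 100 bp and at 3.82% beyond 200 bp.

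The weaker members held the CGATA pair more often. Of 27 motifs 1, or 3.7%, differed between members above and below their median signal, and this was the pair, with 33 members above and 63 below (odds ratio 0.451, Woolf 95% interval from 0.283 to 0.719, adjusted p = 0.0240 by Fisher's exact test). The median signal was 58.2 with the pair and 70.4 without. In 4 equal bins of signal, from the strongest to the weakest, the share was 9.84%, 17.4%, 21.5% and 30.6%. Summits close to the TSS both scored lower and held the pair more often, as given above, and the part of position in this result was not tested. The call was lost when replicate 1 alone ranked the peaks (Fisher's exact test, adjusted p = 0.244), in the narrower windows (0.46), with a partner distance of 2000 bp (0.369), with a limit of 250 bp upstream (0.0694) and among the stronger 848 peaks (0.499). The difference between members above and below the median, -12.3 percentage points, was -9.21, -5.72, -10.2, -13.9 and -10.5 in these 5 cases in turn.

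Against head-to-head peaks 3 of 27 motifs differed, or 11.1%. Ohler motif 7 was in 22.1% of members and 35.6% of head-to-head peaks (odds ratio 0.512, Woolf 95% interval from 0.380 to 0.689, adjusted p = 0.000317 by Fisher's exact test). GAGA was in 8.04% and 2.02% (odds ratio 4.24, Woolf 95% interval from 1.958 to 9.19, adjusted p = 0.000803 by Fisher's exact test). It was also in 8.57% of the weaker candidates under the members' position rule, 6.09% of promoters without a peak and 5.47% of downstream peaks. The head-to-head share was thus the lowest of these, and the members' share was near that of the weaker candidates. The TATA box TATAAA was in 25.6% and 34.6% (odds ratio 0.649, Woolf 95% interval from 0.486 to 0.868, adjusted p = 0.0344 by Fisher's exact test). It was scored anywhere in the window on either strand, and was in 31.7% of promoters without a peak. Adjusted over all 6-base words, in the search given below, the same word did not pass (Fisher's exact test, adjusted p = 0.415). The DRE, with 8.66% and 14.4%, did not pass (Fisher's exact test, adjusted p = 0.0661), nor did the CGATA pair, with 19.8% and 24.2% (Fisher's exact test, adjusted p = 0.376). All 3 calls were lost in the narrower windows, where the shares were 12.8% and 18.9% for motif 7, 2.89% and 0.253% for GAGA and 15.1% and 15.9% for the TATA box. With replicate 1 alone 6 motifs were called. The TATA call was also lost with a partner distance of 500 or 2000 bp, among the stronger 848 peaks and with replicate 1 alone (adjusted p between 0.0558 and 0.787 by Fisher's exact test).

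Since members lay further from their TSS than head-to-head peaks, the comparison was repeated for summits in the first 100 bp alone, a step added after the data were seen. There motif 7 was in 34.8% of 184 members and 39.7% of 257 head-to-head peaks (odds ratio 0.810, Woolf 95% interval from 0.547 to 1.20, adjusted p = 0.949 by Fisher's exact test). GAGA was in 5.98% and 1.95% (odds ratio 3.21, Woolf 95% interval from 1.09 to 9.39, adjusted p = 0.329 by Fisher's exact test). The TATA box was in 16.8% and 31.5% (odds ratio 0.440, Woolf 95% interval from 0.276 to 0.702, adjusted p = 0.0149 by Fisher's exact test) and was the 1 motif called. The CGATA pair, with 41.3% and 30.7%, did not pass (Fisher's exact test, adjusted p = 0.329).

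Against peaks downstream of the TSS 0 of 27 motifs differed after adjustment (Fisher's exact test), and 1 did at an unadjusted p of 0.05. Ohler motif 7 was in 21.9% of those peaks, the CGATA pair in 20.4% and the DRE in 7.96%, close to the members' shares. For motif 7 the odds ratio was 1.01 (95% interval 0.679 to 1.503), which spans both directions. Ohler motif 1 was in 1.86% of members and 4.98% of downstream peaks (odds ratio 0.361, Woolf 95% interval from 0.1445 to 0.903, adjusted p = 0.712 by Fisher's exact test). With replicate 1 alone ranking the peaks, 1 motif was called.

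A search over all 2080 pairs of a 6-base word and its reverse complement found 59 words, or 2.84%, more frequent at member summits than in flanks and 79, or 3.8%, less frequent (exact McNemar test, adjusted over the 2080). The leading word was CGATAG, in 97 members and 5.77% of flanks (exact McNemar test, adjusted p = 1.85e-07). ACACTG was in 21.2% against 8.25%, and ACAGTG in 21.4% against 8.45% (exact McNemar test, adjusted p = 1.01e-05 for both). AAAATA was in 53.6% against 33.8%. The words gained had a mean GC content of 26.6% and those lost 64.8%, beside the lower GC content at summits given above. The part of base composition in this was not tested. Against head-to-head peaks 1 word of 2080, or 0.0481%, differed, which was GAGAGA in 14.02% of members and 5.05% of head-to-head peaks (Fisher's exact test, adjusted p = 0.0165). At an unadjusted p of 0.05 there were 141 such words, and with replicate 1 alone ranking the peaks 8 passed the adjusted threshold.

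By chromosome arm the members made up 27.2% of the reproducible peaks on 2L, 32.8% on 2R, 27.5% on 3L, 27.4% on 3R and 27.6% on X. The intervals of these shares overlap one another. On chromosome 4 there were 4 members of 8 peaks, with RpS3A and Gyf among them.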

How the data were processed

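ChIP-seq peak lists in narrowPeak format, deposited by the authors for dm6, were the starting point, with 1 candidate list for each replicate, 1 of both replicates pooled (21725 candidates) and 1 reproducible list (1696 peaks). Lists on dm3 were not used here. Per the deposited README texts, candidates came from the alignments and a control file, and the reproducible list from the candidate lists. For the aligner, peak caller, versions and IDR threshold, the names and values are not given in the sources. A possible control experiment named in the labels was not analysed here. Each peak has a signal value deposited by the authors, a score of unstated scale, used to describe, rank or split peaks within a list. The deposited q value, on the −log10 scale, is at its ceiling of 3.57 in every reproducible peak and ranks none. The summit is the deposited offset in bp from the start. Read counts were not used, so depth is unknown.

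TSSs of 13945 protein-coding genes came from the Ensembl annotation of BDGP6.54, and sequence from the RefSeq copy of the same assembly. Windows, classes and motifs were computed in Python 3.11.15 with numpy 2.4.6, pandas 2.3.3 and scipy 1.17.1, and tested on simulated data. Motifs with fixed letters were scored as present or absent in windows of 100 bp on each side of the summit. Paired windows were compared with two-sided exact McNemar tests and classes with two-sided Fisher's exact tests, adjusted by Benjamini-Hochberg over all motifs or words, with a threshold of 0.05. Intervals are Wilson intervals for shares and Woolf intervals for odds ratios, both at 95%. The replicates are labelled biological. Replicates were matched by the nearest summit within 250 bp.

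The members, motifs and 20 gene lists were chosen with earlier results of these data known. Named genes are the 20 strongest members, the strongest 3 for each motif called and each list, the extremes of the replicate ratio, the weakest members, those next to the limits and genes with several members. Sequences shown are strong members for each motif, from arms other than 2R, whose window overlaps no annotated UTR. Alternatives were other partner distances and upstream limits, non-coding partners, the stronger peaks alone, each replicate alone, narrower windows and a downstream flank.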

Additional observations from a re-analysis of the deposited data

How the results depend on the processing

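The lower share of genes without a partner that carry a peak kept its direction and passed under every alternative run, at -6.24 to -12.9 percentage points, and at -12.6 among genes with a pooled candidate. All these tests took genes that share a summit as independent. Of the 6 motifs called higher at summits, the CGATA pair, the DRE and Ohler motif 7 passed in every alternative run. The number of motifs called against the flank was 7, and 3 among the stronger 848 peaks, 4 with 50 bp on each side and 12 with a downstream flank. For 6-base words it was 138, against 8 among the stronger peaks and 30 with narrower windows. The smaller counts come with fewer peaks or shorter windows. Among the stronger peaks there were 263 members.

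Against head-to-head peaks the number of motifs was 3, and 0 with narrower windows, 1 for summits in the first 100 bp and 4 to 6 with 1 replicate left out. The number of words was 1, and 0 among the stronger peaks, 0 with narrower windows and 1 to 8 with 1 replicate left out. Against downstream peaks it was 0 motifs, and 0 to 1 with 1 replicate left out. The CGATA pair as the 1 motif tied to signal became 0 with a partner distance of 2000 bp, with summits up to 250 bp, among the stronger peaks and with narrower windows, and 0 to 1 with 1 replicate left out.

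For the share above the list median, the cut among the stronger peaks was their own median. Against downstream peaks this share differed by 7.46 points, by -0.566 among the stronger peaks (p = 1 by Fisher's exact test) and by 7.56 to 10.8 with 1 replicate left out. The higher value was without replicate 1 (Fisher's exact test, p = 0.00618). Against head-to-head peaks it was 1.95 points, 9.82 among the stronger peaks (p = 0.0409 by Fisher's exact test) and -0.729 to 4.52 with 1 replicate left out, the negative value without replicate 1. The share of summits in the first 100 bp, members less weaker candidates, was 1.05 points, -5.38 with summits up to 250 bp (Fisher's exact test, p = 0.0708) and -8.20 among the stronger peaks. In the last of these the weaker candidates also included those at the other reproducible peaks. The cause of these shifts was not tested. With 1 group, no fit with the replicate number as a block could be made.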
